A study of Arabidopsis thaliana with 3 samples.

Results

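The levels of 24-nt small RNAs in nrpd1a seedlings, which lack RNA polymerase IV (Pol IV), were set against those in wild-type (WT) seedlings over 4481 distinct genomic regions. The members are all distinct regions by coordinates in the 6 deposited classes, 4481 of 4481, and no measured value was used to choose them. The comparison takes 2 of the study's 3 libraries. WT is the accession labelled Col, nrpd1a is the line labelled Salk_583051, and ddb2-3 (DsLoxHs195_05H), which lacks the DNA damage-binding protein DDB2 and carries no label of a Pol IV defect, is given beside them. All 3 libraries came from whole seedlings, 10 days old and grown in vitro in liquid medium, and each genotype is 1 library of total RNA, so no difference has a replicate check. The regions are stretches of 51 to 800 bp (median 100 bp) that the deposited tables class as differentially methylated in the CG, CHG or CHH context, hyper or hypo. Which genotypes define these classes is not given in the sources used here.

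Pol IV is a plant RNA polymerase that transcribes transposons and other repeats, and NRPD1 is its largest subunit. Its short transcripts are copied into double-stranded RNA by RDR2 and cut into 24-nt small interfering RNAs (siRNAs) by DCL3. Argonaute proteins such as AGO4 carry the siRNAs to scaffold transcripts of Pol V, where DRM2 methylates the DNA, a process called RNA-directed DNA methylation. Other known sources of small RNAs in plants are hairpins transcribed from inverted repeats, transcripts copied by RDR6, and fragments of abundant RNAs such as tRNAs. The mRNA of NRPD1 was not measured here, so the mutant label can be read only from the small RNAs themselves.

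The sequences below are those of the regions on which the results turn. They were read from the RefSeq copy of the genome (TAIR10.1), whose nuclear chromosomes carry the coordinates of the authors' TAIR10 build, and are written 5′ to 3′. The first 4 are ATDNA12T3_2 repeats on chromosome 3, of which the first 3 kept their small RNAs in nrpd1a and the last lost them. Capitals mark the longest run shared by the 3 kept copies, TAGTACTACTCTC. This run, searched on both strands, is in 3 of the 4481 regions (0.0669%). The third copy is printed from the minus strand and the others from the plus strand.
chr3:13763401-13763455: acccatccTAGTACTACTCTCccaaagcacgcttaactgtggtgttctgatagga
chr3:13796043-13796100: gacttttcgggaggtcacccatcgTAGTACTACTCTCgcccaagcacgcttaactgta
chr3:13862246-13862297: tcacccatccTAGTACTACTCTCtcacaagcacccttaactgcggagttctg
chr3:13859301-13859400: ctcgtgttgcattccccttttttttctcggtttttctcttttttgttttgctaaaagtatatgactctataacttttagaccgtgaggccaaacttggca

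The next 3 sequences are those over tRNA genes, with the bases of the tRNA gene in capitals. AT1G43820 (tRNA-Asp) and AT5G20856 (tRNA-Cys) are printed from the minus strand and AT3G26747 (tRNA-Val) from the plus strand, which are the strands of the genes. The window at AT5G20856 holds 45 of the gene's 72 bases and that at AT3G26747 holds 57 of 74.
AT1G43820, chr1:16585701-16585800: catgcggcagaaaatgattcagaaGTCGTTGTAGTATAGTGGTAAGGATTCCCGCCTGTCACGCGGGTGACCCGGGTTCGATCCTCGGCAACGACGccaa
AT5G20856, chr5:7074301-7074400: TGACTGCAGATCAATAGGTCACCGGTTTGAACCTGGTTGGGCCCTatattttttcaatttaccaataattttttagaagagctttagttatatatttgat
AT3G26747, chr3:9839201-9839257: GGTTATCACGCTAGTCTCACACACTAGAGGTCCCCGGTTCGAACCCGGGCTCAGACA

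Next is the region with the highest nrpd1a to WT ratio, in a coding exon of AT2G07732, a nuclear gene whose product is annotated as rubisco large chain, catalytic domain-containing. Capitals mark bases in a 24-mer that also occurs in an organelle genome, which are 99 bases. Of its 77 24-mers, 53 were found in the mitochondrial genome and 30 in the chloroplast genome. It is followed by AT1G63080 (plus strand) and AT1G63130 (minus strand), which encode repeat proteins of the PPR and TPR type, with their longest shared run of 50 bases in capitals.
AT2G07732, chr2:3468501-3468600: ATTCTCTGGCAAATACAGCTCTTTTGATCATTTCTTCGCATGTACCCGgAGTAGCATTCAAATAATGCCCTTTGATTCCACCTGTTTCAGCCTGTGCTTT
AT1G63080, chr1:23389801-23389900: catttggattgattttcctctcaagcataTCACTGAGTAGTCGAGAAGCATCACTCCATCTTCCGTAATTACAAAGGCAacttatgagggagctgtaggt
AT1G63130, chr1:23413701-23413800: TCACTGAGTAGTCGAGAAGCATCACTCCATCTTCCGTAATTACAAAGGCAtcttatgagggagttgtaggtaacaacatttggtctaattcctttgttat

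The last set shows inverted repeats. Each region is printed from the plus strand and its partner from the minus strand, so a transcript through both could pair with itself, and capitals mark the bases that match in the alignment. The ARNOLDY2 region lies in an intron of AT1G18130, and its arm aligns over 92 columns with 93.5% identity to a partner 384 bp away. The ATMU3N1 region lies in an intron of AT1G02470, and its arm aligns over 93 columns with 88.2% identity to a partner 189 bp away. The region in a coding exon of AT3G44580 aligns over 98 columns with 93.9% identity to a partner 1694 bp away. An ARNOLDY2 region in an intron of AT5G36870, whose longest inverted repeat is 11 bases, is shown for contrast, because its small RNAs were lost.
ARNOLDY2 at AT1G18130, chr1:6237301-6237400: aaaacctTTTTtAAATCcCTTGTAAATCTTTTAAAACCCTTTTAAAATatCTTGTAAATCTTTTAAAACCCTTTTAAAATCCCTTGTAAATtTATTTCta
Its partner, chr1:6236832-6236923: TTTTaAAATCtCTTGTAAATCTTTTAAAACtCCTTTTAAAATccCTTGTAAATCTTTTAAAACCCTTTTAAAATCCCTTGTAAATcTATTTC
ATMU3N1 at AT1G02470, chr1:513001-513100: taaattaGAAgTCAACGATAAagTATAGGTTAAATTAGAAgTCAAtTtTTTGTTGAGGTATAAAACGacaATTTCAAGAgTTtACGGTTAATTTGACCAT
Its partner, chr1:512727-512818: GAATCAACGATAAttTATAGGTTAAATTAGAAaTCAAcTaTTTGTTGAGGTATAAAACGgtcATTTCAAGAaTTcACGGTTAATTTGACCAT
AT3G44580, chr3:16160801-16160900: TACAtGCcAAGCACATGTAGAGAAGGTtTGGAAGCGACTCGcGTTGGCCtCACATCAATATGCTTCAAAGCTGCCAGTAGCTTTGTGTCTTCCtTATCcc
Its partner, chr3:16159009-16159106: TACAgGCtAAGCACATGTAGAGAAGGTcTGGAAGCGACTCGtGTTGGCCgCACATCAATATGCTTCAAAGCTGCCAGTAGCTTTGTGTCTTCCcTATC
ARNOLDY2 at AT5G36870, chr5:14523801-14523900: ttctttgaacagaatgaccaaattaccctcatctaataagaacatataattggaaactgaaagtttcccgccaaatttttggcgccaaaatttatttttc

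Levels are in RPM, reads scaled to library size by the authors. The values are whole multiples of 1 read, worth 0.169, 0.120 and 0.727 RPM in WT, ddb2-3 and nrpd1a, which correspond to normalising totals of 5913669, 8345931 and 1376238 reads. The nrpd1a library is therefore the shallowest, and a count of 0 there allows up to 3 reads, or 2.18 RPM. Ratios carry 95% exact (Clopper-Pearson) intervals on the reads, which cover counting error only and are given in parentheses. A ratio in RPM depends on which reads the denominator counts, and this is not stated.

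The nrpd1a library had lost nearly all 24-nt small RNAs over these regions. Mean levels of WT, ddb2-3 and nrpd1a were 19.1, 20.8 and 0.675 RPM, which leaves nrpd1a with 3.54% of the WT level. Of 4272 regions with at least 1 RPM in WT or nrpd1a, 4162 (97.4%) were at least 2-fold lower on the log2(RPM + 1) scale and 11 (0.257%) were at least 2-fold higher. The median difference on that scale was -2.86. Without any nrpd1a read were 3454 regions (77.1%), and 240 (5.36%) had at least 3 reads.

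Each region was then placed by its interval. It was called Pol IV dependent where the upper end of the interval lay under 10% of WT, Pol IV independent where the lower end lay over 50% with at least 3 nrpd1a reads, and partly dependent where the whole interval lay from 10% to 50%. There were 634 dependent regions (14.1%), 27 independent regions (0.603%) at 25 loci, and 4 partly dependent regions (0.0893%), and the other 3816 were not resolved at this depth. A region without a nrpd1a read needs at least 161 WT reads, 27.2 RPM, to be called dependent, and of the 827 regions with that many, 634 (76.7%) were. Most of the unresolved regions were thus weakly covered, with a median WT level of 5.41 RPM against 55.0 RPM in the dependent ones.

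**Figure D1:**
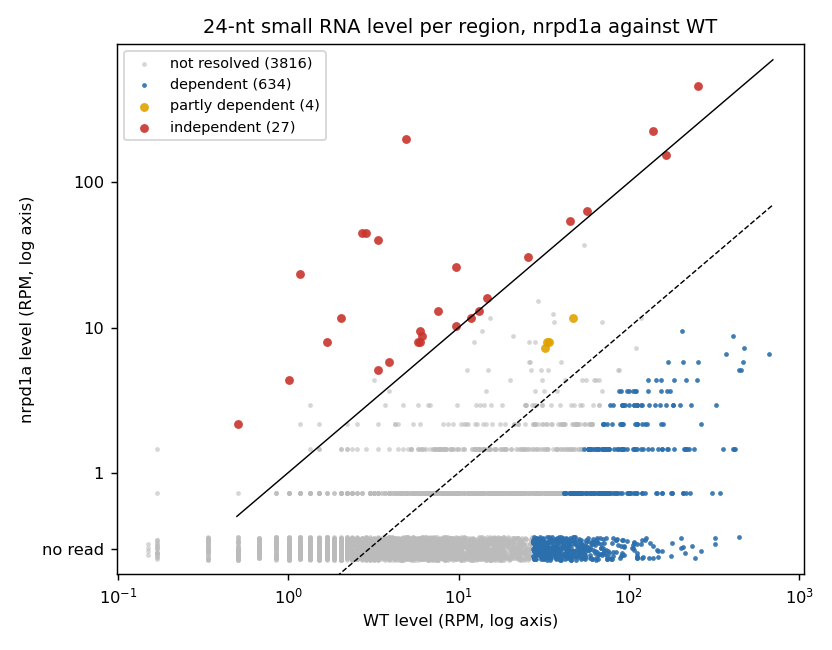
Each point is 1 region, with its WT level on the x axis and its nrpd1a level on the y axis (RPM, log axes); regions without a nrpd1a read form the band at the bottom (spread at random in height), regions without a WT read stand at the left edge, and the solid and dashed lines mark 100% and 10% of WT. The 634 dependent regions lie far below the dashed line, and the 27 independent ones lie on or above the solid line.

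The small RNAs that remained were concentrated in few places. Whether they are siRNAs or fragments of other RNAs was not tested. In nrpd1a 50% of the reads fell in 21 regions, whereas in WT 390 regions held that share, and the 10 highest regions held 44.0% of the nrpd1a reads and 5.37% of the WT reads. The 27 independent regions held 2074 of 4160 nrpd1a reads (49.9%) but 0.939% of the WT reads. Without them nrpd1a kept 1.79% (1.71 to 1.87) of the WT level. The call picks regions by a high nrpd1a to WT ratio, so the shares with and without them follow from it in part.

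Loss was strong in each large group of transposons. LINE retrotransposons kept 1.33% (0.977 to 1.77) of the WT level, SINEs, short elements without their own enzymes, 1.34% (1.0 to 1.75), and Gypsy LTR retrotransposons 1.58% (1.44 to 1.74). Of the 1209 Gypsy regions tested 1198 were at least 2-fold lower, a share of 99.1% beside 97.4% over all regions. Copia elements kept 1.95% (1.65 to 2.28), hAT elements 1.60% (1.18 to 2.11), Harbinger elements 1.82% (1.04 to 2.96) and Helitrons, rolling-circle transposons, 2.17% (2.02 to 2.32). Mutator-like elements, DNA transposons with long terminal inverted repeats in some families, kept 2.96% (2.71 to 3.22).

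Some groups stood above the 3.54% over all regions. En/Spm elements kept 4.52% (3.17 to 6.24), Pogo elements 5.83% (4.05 to 8.13), other repeats 11.6% (10.9 to 12.3), and regions with no repeat listed 19.1% (17.8 to 20.5). The median region of each of the 4 groups was far below WT all the same, with differences from -1.89 for En/Spm to -3.32 for other repeats on the log2 scale. Without the 45 regions (1%) with the highest nrpd1a level, a choice that lowers every such share by construction, regions with no repeat listed kept 1.92%, other repeats 1.31% and En/Spm 1.88%, and Pogo kept 5.57%. The Pogo value comes from 35 nrpd1a reads over 39 regions, the highest with 10.

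**Figure D2:**
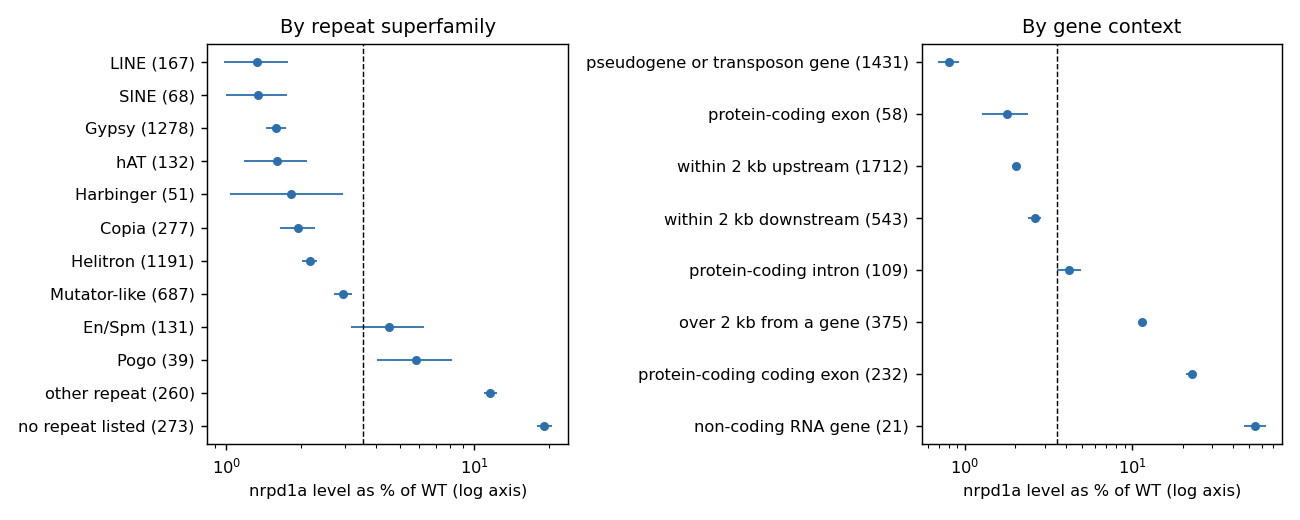
The points give the nrpd1a level as a percentage of WT (log axis) with exact 95% intervals for counting error, by repeat superfamily on the left and by gene context on the right, with the number of regions in parentheses; the dashed line marks 3.54% for all regions. On the left LINE, SINE and Gypsy regions lie lowest and regions with no repeat listed (19.1%) highest; on the right pseudogenes and transposon genes (0.798%) lie lowest and non-coding RNA genes (54.6%) highest.

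Among families of at least 20 regions the lowest share was that of TNAT1A, whose 23 regions had no nrpd1a read against 1261 WT reads (0%, up to 1.26%). VANDAL21, a Mutator-like family, kept 0.237% (0.00600 to 1.32), ATHILA0_I, a Gypsy family, 0.316% (0.0383 to 1.14), and ATENSPM5 0.428% (0.0108 to 2.39). The 4 highest shares were 35.8% (26.9 to 46.7) in HELITRONY1D, 26.8% (20.5 to 34.6) in ATHILA5, 17.5% (15.1 to 20.2) in ARNOLDY2 and 8.93% (7.22 to 10.9) in ARNOLDY1. In HELITRONY1D 55 of 59 nrpd1a reads, and in ATHILA5 62 of 64, lay in a single region over a tRNA gene. Without the 1% highest regions these families kept 2.49% and 0.853%. In ARNOLDY2 and ARNOLDY1 the reads were spread, with at least 3 reads in 14 of 48 and in 8 of 44 regions (29.2% and 18.2%, beside 5.36% over all regions), and without the 1% highest regions they kept 5.30% and 2.83%.

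For each superfamily the most strongly covered region with no nrpd1a read shows how far the loss reached. The ATDNAI27T9A region at chr5:9069301-9069400, within 2 kb downstream of AT5G25970, had 441 and 371 RPM in WT and ddb2-3 and no read in nrpd1a, at least 202-fold lower when nrpd1a is set to its floor of 3 reads. All fold bounds given here use this floor. The exact interval is wider: its upper end in this region, 0.608% of WT, allows a smaller fold. The intron of AT4G03580 (chr4:1598501-1598600), with no repeat listed, had 236 and 308 RPM in WT and ddb2-3 and none in nrpd1a, at least 108-fold lower. WT and ddb2-3 stood far above nrpd1a in each of these regions.

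The same held for retrotransposons. An ATGP1 element, a Gypsy retrotransposon in the transposon gene AT5G28715 (chr5:10766701-10767000), had 213 and 259 RPM in WT and ddb2-3 and none in nrpd1a, at least 97.6-fold lower. A RathE3_cons SINE 256 bp downstream of AT5G22560 (chr5:7491001-7491100) had 156 RPM, 116 RPM and none, at least 71.4-fold lower. An ATLINE1A element in a non-coding exon of AT5G24990 (chr5:8611701-8611800) had 92.3, 60.6 and 0 RPM in WT, ddb2-3 and nrpd1a, at least 42.4-fold lower, and a META1 element, of the Copia type, in AT4G17820 (chr4:9909301-9909400) had 90.6, 86.7 and 0 RPM, at least 41.6-fold lower. Bounds of the weakest superfamilies were smaller, from 10.2-fold for ATHPOGON1 near AT2G07045 to 31.7-fold for TAG3N1, a hAT element upstream of AT1G61680.

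By gene context, 24-nt small RNAs were lost most fully in annotated pseudogenes and transposon genes, which kept 0.798% (0.688 to 0.922) over 1431 regions and held no independent region. Regions within 2 kb upstream of a gene kept 2.02% (1.91 to 2.15), those within 2 kb downstream 2.61% (2.37 to 2.85), non-coding exons of protein-coding genes 1.77% (1.27 to 2.39) and introns 4.2% (3.54 to 4.94). Regions over 2 kb from a gene kept 11.5% (10.8 to 12.1), coding exons 22.7% (21.1 to 24.5) and non-coding RNA genes 54.6% (46.9 to 63.2). Without the 1% highest regions the last 3 kept 1.81%, 2.90% and 2.33%. In coding exons 205 of 218 regions tested (94.0%) were at least 2-fold lower and 6 were higher, so the high share came from a few regions beside a majority that were lost.

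By position, regions within 3 Mb of a centromere kept 4.79% (4.61 to 4.97) and those farther out on the arms 2.38% (2.26 to 2.51). The order turned without the 1% highest regions, at 1.37% and 1.79%. Without the regions listing ATDNA12T3_2 the pericentromeric share was 2.99% (2.85 to 3.14). In the nearest 1 Mb the share was 7.80% (7.41 to 8.20), although 86.6% of its regions had no nrpd1a read, against 67.9% in the regions over 6 Mb away.

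**Figure D3:**
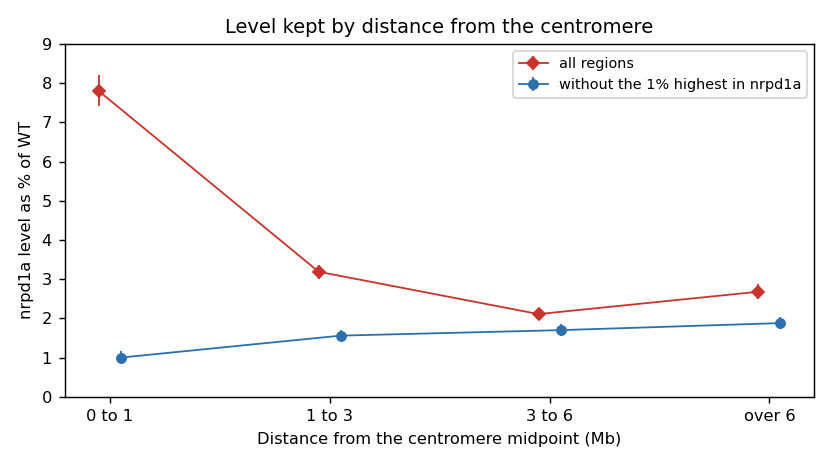
The nrpd1a level as a percentage of WT (y axis, from 0) is given in 4 bins of distance from the centromere midpoint, with exact 95% intervals for counting error. With all regions it falls from 7.80% in the nearest bin to 2.11% at 3 to 6 Mb and is 2.68% beyond; without the 1% of regions highest in nrpd1a it rises from 1.0% to 1.88%.

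The 27 independent regions fell into a few kinds by their annotation and sequence, none of which the call used. They comprised 13 regions with an inverted repeat, 3 copies of ATDNA12T3_2, 4 regions over 3 tRNA genes, 3 regions in PPR or TPR-like genes, 1 organelle-like region and 3 others. An inverted repeat here is an exact one of at least 20 bases within 1 kb or an imperfect match within 5 kb. The exact kind was in 10 of the 27 (37.0%, against 2.90% of all regions). The imperfect match was in 11 (40.7%, against 4.04%). These 11 include the ATDNA12T3_2 copy at chr3:13796043-13796100 (56 columns, 89.3% identity), which was counted with that repeat. A repeat was not listed for 10 of the 27 (37.0%, against 6.09% of all regions), and 8 (29.6%, against 5.18%) lay in coding exons. The nrpd1a level was above WT in 24 of the 27, and in 11 the whole interval lay above WT. The call set a lower limit on the interval of this same ratio, so both counts follow from it in part.

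**Figure D4:**
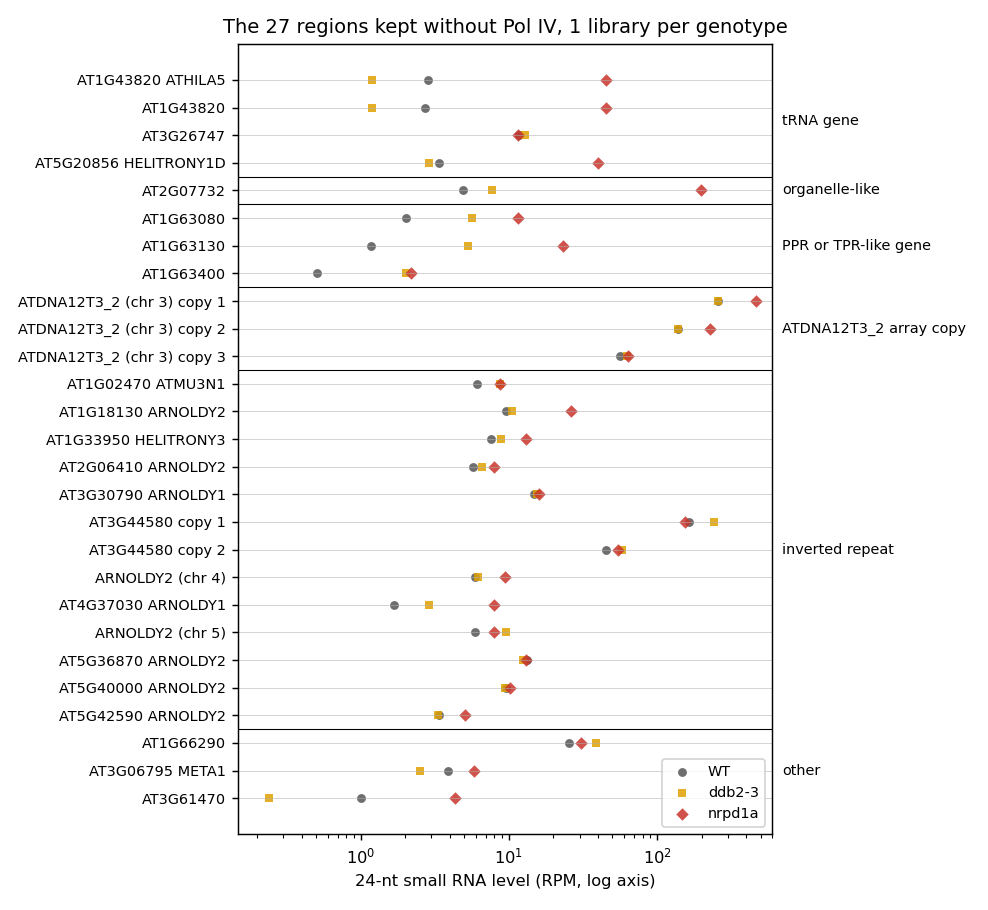
The level in RPM (log axis) of the 27 independent regions is shown in the WT, ddb2-3 and nrpd1a libraries, 1 library each, named by the gene they lie in or near and by the repeat listed, and grouped by kind. In the tRNA-Asp, tRNA-Cys, AT2G07732 and AT1G63130 regions nrpd1a lies far to the right of both other libraries, and in most inverted repeat regions the 3 libraries lie close together.

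The largest single source of remaining reads was a set of 3 windows on chromosome 3 that list the ATDNA12T3_2 repeat. These kept copies held 25% of all nrpd1a reads. The copy at chr3:13763401-13763455 had 256, 258 and 463 RPM in WT, ddb2-3 and nrpd1a, 181% of WT (165 to 199). The copy at chr3:13796043-13796100 had 138, 139 and 228 RPM, 166% (145 to 189), and the copy at chr3:13862246-13862297 had 56.6, 62.8 and 63.2 RPM, 112% (87.1 to 142). WT and ddb2-3 were close to each other in all 3 copies, and nrpd1a was higher than both.

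The repeat as a whole did not share this. The copy at chr3:13859301-13859400 had 374, 230 and 6.54 RPM in WT, ddb2-3 and nrpd1a, 1.75% of WT (0.799 to 3.33), and it lies within 3 kb of a kept copy. The 14 copies other than the 3 kept ones had 15 nrpd1a reads in all, 2.15% of WT (1.20 to 3.55). As printed above, the kept copies share a run that the lost window does not hold. The run was taken from the kept windows themselves. Which part of the repeat each window covers was not tested, so the run does not separate kept from lost copies. A 20-base segment at the end of the third copy occurs 194 times on chromosome 3, 12 times on chromosome 4 and 56 times on chromosome 5, and not on chromosomes 1 and 2. Of the 3 kept copies it overlaps the third and that at chr3:13763401-13763455, and not that at chr3:13796043-13796100. Median spacings were 544, 498 and 502 bp on chromosomes 3, 4 and 5, and 94 of 193, 9 of 11 and 16 of 55 spacings lay from 480 to 520 bp. The 5S ribosomal RNA genes of Arabidopsis are known to lie in tandem arrays near centromeres. No such gene is annotated at these places in the annotation used here, so whether the kept windows hold 5S sequence was not tested. The name ATDNA12T3_2 is the listed annotation only. Of the 56 regions within the span of the segment on chromosome 3, 49 had no nrpd1a read (beside 77.1% of all regions), 8 were dependent, a share near the 14.1% over all regions, and the 3 kept copies were the independent ones.

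Regions over tRNA genes were kept or raised in all 4 cases. The tRNA-Asp gene AT1G43820, in a window that lists ATHILA5, had 2.87, 1.20 and 45.1 RPM in WT, ddb2-3 and nrpd1a (chr1:16585701-16585800), 1567% of WT (905 to 2859), and a second region over the same gene counted the same 62 reads. The tRNA-Cys gene AT5G20856 had 3.38, 2.88 and 40.0 RPM (chr5:7074301-7074400), 1182% (697 to 2082). The tRNA-Val gene AT3G26747 had 11.8, 12.8 and 11.6 RPM (chr3:9839201-9839257), 98.2% (53.2 to 171). The first 2 genes thus had a higher 24-nt RPM in nrpd1a than in either other library, while tRNA-Val was level in all 3.

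The region in AT2G07732 had 4.90, 7.67 and 198 RPM in WT, ddb2-3 and nrpd1a, 4030% of WT (2743 to 6133) on 272 nrpd1a reads. All of its 24-mers are unique in the nuclear genome, but as printed above most also occur in organelle DNA. The other 6 regions with at least 50% of their 24-mers in an organelle genome had 2 nrpd1a reads in all, 5 of them none, so such sequence was not raised in general. Small RNAs of nuclear and organelle origin cannot be told apart in these tables.

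Of 5 regions in PPR or TPR-like genes 3 were independent, all in a cluster of related genes on chromosome 1, some members of which are known in Arabidopsis as sources of RDR6-dependent secondary siRNAs. AT1G63130 had 1.18, 5.27 and 23.3 RPM in WT, ddb2-3 and nrpd1a, 1964% of WT (852 to 5273). AT1G63080 had 2.03, 5.63 and 11.6 RPM, 573% (254 to 1327), and AT1G63400 (chr1:23508201-23508300) had 0.507, 2.04 and 2.18 RPM, 430% (57.6 to 3208) on 3 nrpd1a reads. WT was the lowest library and nrpd1a the highest in each. The 3 regions share runs of 33 to 50 bases, so that reads can match more than 1 of these genes.

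The 3 remaining independent regions had no feature in common. AT1G66290, an F-box gene, had 25.4, 38.7 and 30.5 RPM in WT, ddb2-3 and nrpd1a (chr1:24714701-24714800), 120% (83.3 to 170), and all of its 24-mers are unique in the nuclear genome. AT3G61470, which encodes a light-harvesting protein of photosystem I, had 1.01, 0.240 and 4.36 RPM (chr3:22746601-22746700), 430% (115 to 1607) on 6 nrpd1a reads. A META1 element 691 bp upstream of AT3G06795 had 3.89, 2.52 and 5.81 RPM (chr3:16039201-16039300), 149% (57.8 to 346).

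Of the kinds listed above, regions with an inverted repeat were the most numerous among the independent ones. An exact inverted repeat of at least 20 bases, with its partner within 1 kb, was found in 130 regions (2.90%), in 10 of 27 independent regions (37.0%) and in 20 of 634 dependent ones (3.15%). Of these 10, 7 listed ARNOLDY2, 1 ARNOLDY1 and 1 HELITRONY3. The 77 regions with such a repeat outside ARNOLDY2, ARNOLDY1, HELITRONY3 and BRODYAGA2 held 1. Regions with one kept 9.68% (8.82 to 10.6) of the WT level and the others 3.27% (3.17 to 3.38). Among regions with 20 to 29 bases the share was 14.5% (12.7 to 16.5), and with at least 30 bases 7.16% (6.25 to 8.17). With 15 to 19 bases it was 2.69% (2.19 to 3.28), with 12 to 14 bases 1.79% (1.59 to 2.0), with 10 to 11 bases 3.63% (3.46 to 3.80) and with fewer 3.51% (3.33 to 3.68), so the shares had no steady order below 20 bases. Without the 1% highest regions, those with an inverted repeat of at least 20 bases kept 3.11% (2.60 to 3.68) and the others 1.53% (1.46 to 1.60).

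The difference was large in 4 families. ARNOLDY2, a Mutator-like family and the clearest of them, kept 68.8% (58.0 to 81.1) in its 15 regions with an inverted repeat and 3.05% (1.99 to 4.48) in its 33 others. In the 15 regions the WT level ran from 3.38 to 29.3 RPM with a median of 9.64, that of ddb2-3 from 3.35 to 28.8 RPM with a median of 9.59, and that of nrpd1a from 0 to 26.2 RPM with a median of 7.99. In the 33 others WT ran from 1.18 to 50.7 RPM with a median of 15.2, ddb2-3 from 1.08 to 66.0 RPM with a median of 14.4, and nrpd1a from 0 to 4.36 RPM with a median of 0. The ranges of the regions overlapped in WT, while in nrpd1a most regions with an inverted repeat held reads and most others held none. At least 3 nrpd1a reads were found in 12 of the 15 regions and in 2 of the 33.

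ARNOLDY1 kept 24.9% (19.0 to 32.0) in 9 regions with an inverted repeat and 3.91% (2.67 to 5.53) in 35 others. HELITRONY3 kept 26.2% (21.1 to 32.2) in 19 regions and 2.77% (2.17 to 3.48) in 99, with median nrpd1a levels of 1.45 and 0 RPM. BRODYAGA2 kept 12% (9.35 to 15.2) in 10 regions and 0.917% (0.396 to 1.81) in 17, and a single region, 249 bp downstream of AT5G65230 (chr5:26069901-26070000), had 54.3, 46.1 and 37.1 RPM in WT, ddb2-3 and nrpd1a. Without that region the BRODYAGA2 share was 3.87%, and without their own highest regions the shares of ARNOLDY2, ARNOLDY1 and HELITRONY3 were 56.9%, 17.7% and 21.9%. Without the 1% highest regions, which takes out 8 of the 15 ARNOLDY2 regions, the shares were 22.8% (14.6 to 34.1) in ARNOLDY2, 11.0% (7.16 to 16.2) in HELITRONY3 and 4.92% (1.59 to 11.6) in ARNOLDY1. The last overlaps the 2.58% (1.59 to 3.94) of the other ARNOLDY1 regions under that choice. Outside the 4 families the share was 2.09% (1.62 to 2.64) in 77 regions with an inverted repeat and 3.30% (3.19 to 3.41) in 4167 without one. That order turned without the 1% highest regions, at 1.73% (1.31 to 2.24) and 1.48% (1.41 to 1.56), intervals that overlap. By region, at least 3 nrpd1a reads were found in 10.4% of those with an inverted repeat and in 4.44% of those without. The 4 families were picked after their values had been seen, and copies share sequence. In ARNOLDY2 a median of 32.5% of the 24-mers of a region with an inverted repeat recur in another such region. The regions are therefore not independent of each other. A run of bases in an independent HELITRONY3 region also occurs, on the opposite strand, in an independent ARNOLDY2 region. Sharing of 24-mers between families was not tested, so the 4 families may not be separate cases.

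**Figure D5:**
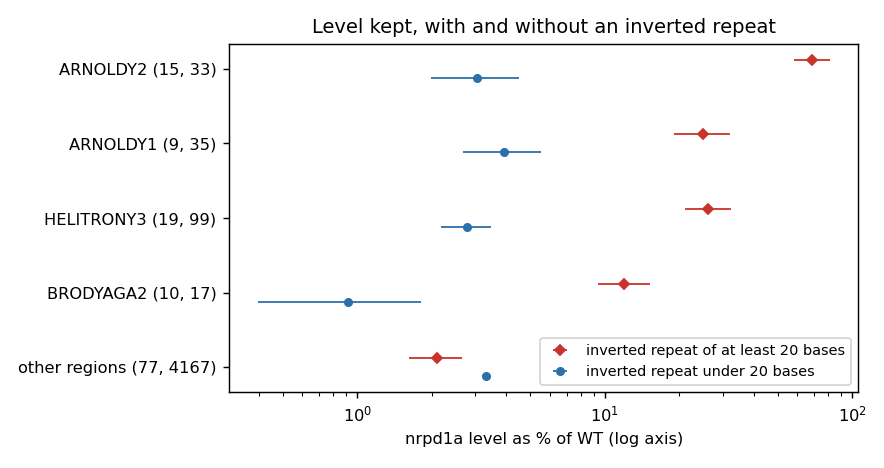
The nrpd1a level as a percentage of WT (log axis) is shown with exact 95% intervals for counting error, for regions with an exact inverted repeat of at least 20 bases (red) and with a shorter one (blue); the 2 numbers in parentheses are the regions of each kind. The red value lies above the blue one in ARNOLDY2, ARNOLDY1, HELITRONY3 and BRODYAGA2. In the other regions it lies below (2.09% against 3.30%), an order that turns without the 1% highest regions.

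Single loci show the contrast. The ARNOLDY2 region in AT1G18130 printed above, with an exact inverted repeat of 41 bases, had 9.64, 10.5 and 26.2 RPM in WT, ddb2-3 and nrpd1a, 271% of WT (174 to 419). In the intron of AT5G36870, a glucan synthase-like gene, an ARNOLDY2 region with an inverted repeat of 21 bases (chr5:14525201-14525300) had 13.2, 12.5 and 13.1 RPM, 99.2% (55.9 to 167). The other ARNOLDY2 region in that gene, printed above, had 48.5 and 34.6 RPM in WT and ddb2-3 and no read in nrpd1a, at least 22.3-fold lower. Both regions of 1 gene thus had small RNAs in WT and ddb2-3, and 1 of them had them in nrpd1a.

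Outside these families, the ATMU3N1 region in AT1G02470 (inverted repeat of 49 bases) had 6.09, 8.75 and 8.72 RPM in WT, ddb2-3 and nrpd1a, 143% (67.9 to 282). Another ATMU3N1 region, in a non-coding exon of AT5G19210 with an inverted repeat of 28 bases (chr5:6461201-6461285), had 246, 226 and 0 RPM, at least 113-fold lower. An inverted repeat was therefore found in both kept and lost regions of that family. AT3G44580, an uncharacterised gene, had 165, 241 and 155 RPM (chr3:16160801-16160900), 94.4% (81.0 to 110), and 45.0, 58.1 and 54.5 RPM in the adjoining region, 121% (92.5 to 157). Its longest exact inverted repeat within 1 kb is 8 bases, and the partner printed above was found only when the search was widened to 5 kb.

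The 4 partly dependent regions kept from 22.5% to 24.9% of WT. They comprised 2 ATGP1 regions, an ARNOLDY1 region with an inverted repeat of 21 bases near AT5G05625, and a region of ATDNA2T9B and HELITRON2 near AT1G52950. The last had 46.7, 47.6 and 11.6 RPM in WT, ddb2-3 and nrpd1a, 24.9% (14.0 to 41.2).

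Genes of the silencing pathway themselves had few regions. Of 22 listed genes of RNA-directed DNA methylation 3 had a region in the gene or within 2 kb upstream, and all 3 regions were at least 2-fold lower, a share to be read beside 97.4% over all regions. Upstream of NRPD1 (AT1G63020) an ATREP15 element 912 bp away had 5.92 and 6.11 RPM in WT and ddb2-3 and none in nrpd1a. Upstream of SUVH9, a reader of methylated DNA, the region lists ATLINE2 and lies in the annotated pseudogene or transposon gene AT4G13470. It fell from 49.9 RPM in WT to 0.727 RPM in nrpd1a. The region upstream of HEN1, which methylates the ends of small RNAs, fell from 23.3 RPM to none. Upstream of MET1, the maintenance CG methyltransferase, 1.86 RPM in WT stood against none in nrpd1a, which is under the limit that a count of 0 allows. Near TAS1B, a source of trans-acting siRNAs, an ATHPOGON1 region in an intron of AT1G50060 had 6.76, 7.07 and 2.91 RPM in WT, ddb2-3 and nrpd1a, 43.0% (11.2 to 119). Lists of 8 other small RNA factors and of 13 known targets of DNA methylation had no region.

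Regions with a run of 5 GA repeats, searched on both strands, kept 1.24% (0.749 to 1.95) over 39 regions, and 6 regions over miRNA genes kept 5.67% (1.83 to 13.3) on 5 nrpd1a reads. Median GC content was 38.0% in independent, 34.0% in dependent and 36.4% in all regions. Regions in which at least 90% of the 24-mers are unique in the nuclear genome kept 5.20% (4.74 to 5.69), and 272 of their 479 nrpd1a reads came from AT2G07732.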

How the data were processed

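Small RNAs of total RNA from 3 libraries, 1 each of WT, ddb2-3 and nrpd1a, were grouped by the genotype label. The TAIR10 build and the tools Bowtie, bedtools and CASAVA 1.8.2 are named in the submitters' processing notes, and how reads with several genomic hits were handled is not given in the sources used here. The authors deposited one RPM value per region, per the file headers, and the names of the tables give the 24-nt length class. Regions were pooled over the 6 classes by coordinates, and 322 of them touch or overlap another, so a read there counts in each.

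All RPM values (100%) were whole multiples of 1 step per library within 0.1 read, and reads were recovered from them. No genotype test is possible with 1 library each: ratios carry exact 95% Clopper-Pearson intervals, which are too narrow where reads are counted more than once. An exact binomial test on the recovered reads (Benjamini-Hochberg at 0.05), which compares these 2 libraries only, called 3191 regions lower and 11 higher of 4272.

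Gene context, tRNA genes and sequences come from the RefSeq annotation and genome (TAIR10.1), inside whose chromosomes all regions lie, and distances from approximate centromere midpoints set by hand. A family needs at least 20 regions, a locus joins regions within 500 bp, and the floor is 3 reads. An imperfect inverted match has at least 50 aligned bases and 80% identity. Named regions are the 12 highest in nrpd1a, the 12 with the highest lower bound on at least 5 reads, per superfamily the highest in WT without a nrpd1a read, the 4 highest and 4 lowest families, and regions of the listed genes; the other independent and partly dependent regions, and those compared with them, were chosen after their values were seen. The members and lists were chosen with earlier results of these data known, and the inverted repeat limits and the kinds of independent regions after the values were seen. Python 3.11.15, numpy 2.4.6, pandas 2.3.3, scipy 1.17.1, Biopython 1.88 and matplotlib 3.10.9 were used.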

Additional observations from a re-analysis of the deposited data

How the results depend on the processing

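No paired analysis was possible because each genotype has 1 library. The share of the WT level kept over all regions, 3.54%, was 1.59% without the 1% highest nrpd1a regions, 3.30% without organelle-like regions, 5.20% in regions with at least 90% unique 24-mers and, chosen after seeing the data, 1.79% without the independent regions. The pericentromeric share of 4.79% was 1.37%, 4.31% and 8.15% under the first 3 of these, 5.16% with a limit of 2 Mb, 4.06% with 5 Mb and 2.99% without ATDNA12T3_2 regions (chosen after seeing the data). The arm share of 2.38% was 1.79% without the 1% highest, 2.99% in unique regions and 2.69% with a limit of 2 Mb. The count of regions at least 2-fold lower, 4162, was 1758 with a minimum of 10 RPM and 2552 with nrpd1a levels under 3 reads set to 3 reads, and the 11 higher were 7 with a minimum of 10 RPM. The 634 dependent regions were 412 with 99% intervals, 1283 with limits of 20% and 80%, and 206 with nrpd1a scaled 2-fold up. Scaling nrpd1a 2-fold down also gave 1283, which for this call is the same rule as the 20% limit and no separate check. The 27 independent regions were 16 with limits of 20% and 80%, 11 with nrpd1a scaled down and 36 with it scaled up. Of 222 further values by class, family, context or inverted repeat, 133 stayed within their counting interval and 89 moved, 34 of them in regions with at least 90% unique 24-mers and 31 without the 1% highest regions; the cause was not tested. With an inverted repeat of at least 15 bases, at least 25 bases or an imperfect match (all chosen after seeing the data), ARNOLDY2 kept 58.3%, 70.8% and 68.1%, HELITRONY3 14.1%, 30.9% and 19.8%, and the other ARNOLDY2 regions 2.14%, 6.11% and 7.66%. ARNOLDY1 kept 20.1% and, with an imperfect match, 37.0% on 5 regions; none of its 44 regions has an inverted repeat of 25 bases.

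Depth limits the calls: 1 nrpd1a read is worth 0.727 RPM, and 3816 of 4481 regions were placed in no group. Which reads the RPM denominator counts is not stated, so a nrpd1a level above WT holds on the RPM scale. Reads that match several repeat copies, organelle DNA or related genes are not assigned here.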
